A study of Mus musculus with 20 samples.

Results

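The subject is a set of 32 genes of cholesterol and fatty acid synthesis in mouse TCRαβ+CD8αα+ intraepithelial lymphocytes (IELs), T cells that live between the epithelial cells of the small intestine. The genes were chosen by symbol from pathway knowledge, and all 32 were listed in each table, among 12975 genes in the reporter-mouse table, 13766 in the Bcl6 table, 13624 in the Prdm1 table and 25036 in the Tcf7 table. Sorted cells were profiled by bulk RNA-seq in 20 libraries of steady-state mice. From Bcl6-RFP/RFP mice, in which red fluorescent protein reports Bcl6, 3 libraries came from cells with both RFP and CD160 (called RFP+ here) and another 3 from cells with neither (RFP-). All CD8αα+ αβ IELs of Bcl6 fl/fl Cd8cre, Prdm1 fl/fl Cd8cre and Tcf7 fl/fl Cd8cre mice gave 2 libraries per genotype. Each genotype was set against 2 libraries of littermates that carry the same floxed alleles without Cd8cre, so Cd8cre itself and loss of the gene cannot be told apart. Cd8cre expresses the Cre recombinase under Cd8 regulatory sequences. Each of these genes encodes a transcription factor, with Prdm1 coding for BLIMP1 and Tcf7 for TCF1. Another 2 libraries of Bcl6-RFP/RFP mice carry the title LI but the tissue label small intestine. The labels give no sort gate for them, so they are shown as values only. The labels do not say that libraries came from separate mice or give the animals' age, so p-values measure the spread between these libraries, which may be technical. BGI Genomics or Novogene made the libraries, and the labels do not say which made which.

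Cholesterol is built from acetyl-CoA in the mevalonate pathway, whose product squalene is closed into lanosterol and then trimmed to cholesterol. The transcription factors SREBP2 (Srebf2) and SREBP1 (Srebf1) switch on these enzymes and those of fatty acid synthesis. They do so after SCAP carries them out of the endoplasmic reticulum, a step that INSIG proteins block when sterols are plentiful. Dividing and activated T cells need both pathways to make membrane.

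The depth worked out from the values was 14.5 to 17.4 M (mega) reads in the RFP+ and RFP- libraries, at least 22.5 M in each of the LI libraries, 22.1 to 23.0 M in the Bcl6 experiment, 30.1 to 38.4 M in the Prdm1 experiment and 41.0 to 48.2 M in the Tcf7 experiment. The Prdm1 and Tcf7 depths are sums over listed genes and the others are scaling totals, so they are unlike measures. The sorted and deleted genes lay in the direction of the labels. Tcf7 signal remained in the Tcf7 knockouts and Bcl6 was not tested in the Bcl6 knockouts, so how complete these losses were is not shown. Bcl6 was 13.7 to 18.0 FPKM in RFP+ cells against 3.30 to 3.59 FPKM in RFP- cells, Prdm1 signal was 640 and 362 in knockouts and 6092 and 5117 in littermates, and Tcf7 signal was 7757 and 7993 against 15430 and 15606. In the Bcl6 experiment Bcl6 was low in all 4 libraries, at 0.550 and 0.638 FPKM in knockouts and 0.772 and 0.735 FPKM in littermates, and it was below the filter. Cd8a averaged 574 FPKM in RFP+ cells against 913 FPKM in RFP- cells, while Cd8b1, the second chain of CD8αβ, averaged 0.935 and 1.04 FPKM.

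SREBPs act at promoters together with NF-Y, which binds the letters CCAAT, and with SP1, which binds GC-rich boxes, so the promoters were read for these letters. RefSeq promoters of the GRCm38.p6 build, from 250 bases before to 50 after each start, were matched by symbol for 25 of the 32 genes. Windows of 150 bases before the start are shown for 5 genes that were lower in RFP+ cells (Mvd, Nsdhl, Lss, Sc5d and Ebp) and for Hmgcs1, the one matched gene whose promoter held TCACNCCAC, a form of the sterol regulatory element. Capitals mark CCAAT on either strand (CCAAT or ATTGG) and, in Hmgcs1, that element. The windows are chr8:122443423-122443572 on the minus strand (Mvd), chrX:72918371-72918520 on the plus strand (Nsdhl), chr10:76531455-76531604 on the plus strand (Lss), chr9:42264301-42264450 on the minus strand (Sc5d), chrX:8193513-8193662 on the minus strand (Ebp) and chr13:119690201-119690350 on the plus strand (Hmgcs1).
Mvd: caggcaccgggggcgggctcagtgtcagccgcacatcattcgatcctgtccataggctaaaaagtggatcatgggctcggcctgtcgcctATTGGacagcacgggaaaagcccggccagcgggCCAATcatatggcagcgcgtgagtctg
Nsdhl: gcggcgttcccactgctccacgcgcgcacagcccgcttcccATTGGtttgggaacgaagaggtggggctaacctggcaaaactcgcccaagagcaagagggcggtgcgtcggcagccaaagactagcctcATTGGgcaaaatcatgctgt
Lss: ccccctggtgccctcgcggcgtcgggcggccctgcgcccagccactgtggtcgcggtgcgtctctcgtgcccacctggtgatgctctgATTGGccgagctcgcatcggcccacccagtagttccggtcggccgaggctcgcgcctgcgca
Sc5d: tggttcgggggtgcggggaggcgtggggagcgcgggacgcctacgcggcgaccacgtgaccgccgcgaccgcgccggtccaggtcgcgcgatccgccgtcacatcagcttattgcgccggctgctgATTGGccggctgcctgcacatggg
Ebp: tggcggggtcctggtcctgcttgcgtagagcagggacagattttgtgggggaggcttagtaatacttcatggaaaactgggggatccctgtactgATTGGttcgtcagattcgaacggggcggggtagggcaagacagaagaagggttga
Hmgcs1: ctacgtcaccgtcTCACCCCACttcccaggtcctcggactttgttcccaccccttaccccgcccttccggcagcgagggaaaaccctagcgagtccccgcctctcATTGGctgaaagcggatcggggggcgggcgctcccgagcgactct
Within these windows, which end at the start, the last copy began 27 bases before it in Mvd, 20 in Nsdhl, 62 in Lss, 24 in Sc5d, 55 in Ebp and 45 in Hmgcs1. Nsdhl and Hmgcs1 also held copies after the start, outside the windows shown. The windows shown do not stand for all lower genes. Acat2 and Acly, also lower in RFP+ cells, held no CCAAT in the same stretch before the start. Of 16 lower genes with a matched promoter, 15 held CCAAT in at least 1 promoter. CCAAT on either strand was present in at least 1 promoter of 20 of the 25 matched genes (80%), compared with 37.4% of all 32851 promoters of that length and 43.3% of 7905 matched genes tested in the reporter mice. The GC box GGGCGG was present in 21 of the 25 genes (84%), in 35.7% of all promoters and in 70.2% of the tested genes. Counted by promoter, since some genes have several, CCAAT was in 21 (63.6%) and GGGCGG in 25 (75.8%) of the 33 promoters of these genes. TCACNCCAC was present in 1 of the 25 genes and in 1.24% of all promoters. Both strands were searched and overlaps between motifs were allowed, and a match describes the letters in the window, not binding.

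In the reporter mice most genes of sterol synthesis were lower in RFP+ than in RFP- IELs. Of 31 genes that passed the filter of 1 FPKM, 19 were lower and 0 were higher by limma at an adjusted p of 0.05, and no further gene was higher at an unadjusted p of 0.05. Over all 9717 tested genes, 21.6% were called lower and 16.4% higher. The median log2 fold change of the 31 genes was -0.35, and that of all tested genes was -0.03. In 20 of the 31 genes every RFP+ library lay below every RFP- library, which was so for 28.5% of all tested genes. A difference larger than 1.5-fold was found for 6 of the 19. Fewer cells of a type and less RNA per cell cannot be told apart in such bulk samples.

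**Figure D1:**
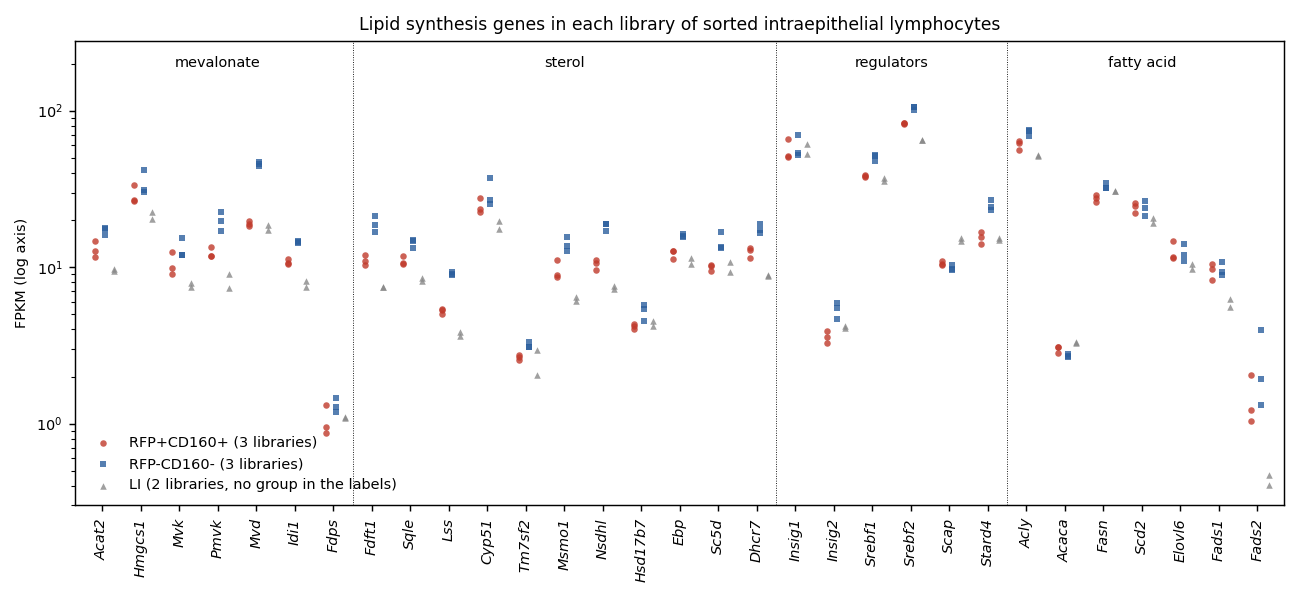
FPKM (log axis) of the 31 tested genes in each library of the reporter mice, grouped by role, with 1 point per library. Mvd stands out, with RFP+ libraries at 18.4 to 19.7 FPKM and RFP- libraries at 44.5 to 46.8 FPKM, and the LI libraries lie at or below the RFP+ libraries for many genes.

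Of the 7 mevalonate pathway genes, 4 fell in RFP+ cells and all 7 had a negative log2 fold change, with a median of -0.38. Mvd, the decarboxylase that makes isopentenyl diphosphate, had 19.7, 18.4 and 19.0 FPKM in RFP+ cells against 46.8, 45.3 and 44.5 FPKM in RFP- cells. The groups were far apart, with a log2 fold change of -1.22 ± 0.05 (SE) and a limma adjusted p of 1.8e-06. Pmvk, the kinase before it, had 11.8, 11.7 and 13.5 FPKM against 22.4, 19.6 and 17.1 FPKM, with a log2 fold change of -0.63 ± 0.10 and a limma adjusted p of 0.0017. Idi1, the isomerase after it, had 10.5, 11.3 and 10.6 FPKM against 14.7, 14.2 and 14.5 FPKM, a small difference with little spread (log2 fold change -0.39 ± 0.05, limma adjusted p = 0.00086). Acat2, the thiolase that starts the pathway, fell by 0.38 ± 0.08 on the log2 scale (limma adjusted p = 0.0086), with 11.7, 14.7 and 12.6 FPKM against 16.1, 17.8 and 17.6 FPKM. The other 3 did not pass. Hmgcs1, the HMG-CoA synthase, had 26.6, 27.0 and 33.5 FPKM in RFP+ cells against 41.8, 30.2 and 31.1 FPKM in RFP- cells, so the groups overlapped, and the 95% interval of its log2 fold change ran from -0.54 to 0.08. Mvk, the mevalonate kinase, also overlapped (adjusted p = 0.10 by limma). Fdps, the farnesyl diphosphate synthase, was listed at only 0.873 to 1.47 FPKM, on 55 to 138 reads, over the RFP+, RFP- and LI libraries.

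Of the 11 genes from squalene synthesis to cholesterol, 9 fell, with a median log2 fold change of -0.46. Nsdhl, a dehydrogenase that removes a methyl group of the sterol ring, had 11.2, 9.64 and 10.6 FPKM in RFP+ cells against 17.1, 18.9 and 18.8 FPKM in RFP- cells. Its log2 fold change was -0.75 ± 0.07 and its limma adjusted p 0.00011. Fdft1, which joins farnesyl units into squalene, had 10.4, 10.9 and 11.9 FPKM against 21.3, 18.5 and 16.8 FPKM, with a log2 fold change of -0.72 ± 0.09 and a limma adjusted p of 0.00052. In both genes the highest RFP+ library was well below the lowest RFP- library. Lss, which closes squalene epoxide into lanosterol, had 5.29, 5.44 and 5.04 FPKM against 8.96, 9.07 and 9.28 FPKM, with a log2 fold change of -0.69 ± 0.06 and a limma adjusted p of 6e-05. Msmo1, the sterol methyl oxidase, fell by 0.51 ± 0.10, Sc5d, the sterol desaturase, by 0.48 ± 0.09, and Dhcr7, the last reductase of the pathway, by 0.46 ± 0.07 on the log2 scale. Ebp, the sterol isomerase, fell by 0.36 ± 0.06 and Sqle, the squalene epoxidase, by 0.35 ± 0.07. Limma adjusted p-values of these 5 genes were between 0.0019 and 0.0063. Hsd17b7, a sterol ketoreductase, passed narrowly with a log2 fold change of -0.25 ± 0.09 and a limma adjusted p of 0.049, and it no longer passed in 10 of the 13 alternative fits. Cyp51, the lanosterol demethylase, had 22.4, 23.7 and 27.8 FPKM against 37.2, 27.0 and 25.5 FPKM and overlapped. Tm7sf2, a sterol reductase, was lower without overlap but did not pass (log2 fold change -0.19 ± 0.07, limma adjusted p = 0.071).

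Among the 6 regulators, 4 fell. Srebf2 had the highest FPKM of the 32 genes in both groups, with 81.8, 83.0 and 83.7 FPKM in RFP+ cells against 106, 105 and 102 FPKM in RFP- cells. The spread was small in each group, and its log2 fold change was -0.32 ± 0.04 (limma adjusted p = 0.00088). Srebf1 had 37.7, 38.3 and 38.6 FPKM against 47.7, 51.5 and 51.9 FPKM, with a log2 fold change of -0.39 ± 0.05 and a limma adjusted p of 0.00065. Stard4, a carrier of cholesterol between membranes, had 15.6, 14.1 and 16.8 FPKM against 27.1, 23.1 and 24.3 FPKM, with a log2 fold change of -0.64 ± 0.08 and a limma adjusted p of 0.00052. The INSIG genes gave different readings. Insig2 had 3.60, 3.92 and 3.25 FPKM against 5.49, 4.65 and 5.90 FPKM and fell by 0.46 ± 0.10 (limma adjusted p = 0.0064). Insig1 was about an order of magnitude higher and overlapped, with 51.6, 50.7 and 66.3 FPKM in RFP+ cells against 70.0, 53.7 and 52.0 FPKM in RFP- cells, and the interval of its log2 fold change ran from -0.37 to 0.25. Scap had 10.5, 10.3 and 10.9 FPKM against 10.4, 9.78 and 9.61 FPKM and did not pass (log2 fold change 0.08 ± 0.06).

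Of the 7 fatty acid genes tested, 2 fell in RFP+ cells, and the group's median log2 fold change was -0.03, equal after rounding to that of all tested genes. The difference between these genes and the sterol genes was not tested. Acly, which makes cytosolic acetyl-CoA from citrate, had 62.0, 56.1 and 64.2 FPKM in RFP+ cells against 73.9, 74.9 and 69.3 FPKM in RFP- cells and fell by 0.26 ± 0.06 (limma adjusted p = 0.015). Fasn, the fatty acid synthase, had 28.8, 25.9 and 27.6 FPKM against 31.9, 34.7 and 32.0 FPKM and fell by 0.25 ± 0.06 (limma adjusted p = 0.012). Neither gene's groups overlapped. Acaca, the acetyl-CoA carboxylase, lay the other way without overlap, at 3.07, 3.09 and 2.82 FPKM against 2.81, 2.68 and 2.71 FPKM, and did not pass (limma adjusted p = 0.32). The desaturase Scd2, the elongase Elovl6 and the desaturase Fads1 overlapped, with log2 fold changes of 0.02, 0.03 and -0.03. Their 95% intervals lay between -0.25 and 0.29. Fads2, another desaturase, varied most, with 1.22, 1.04 and 2.05 FPKM against 3.97, 1.93 and 1.31 FPKM. Scd1 was below the filter in all 4 experiments, with 0 to 4 reads per library in the reporter mice, so no change can be read from it.

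**Figure D2:**
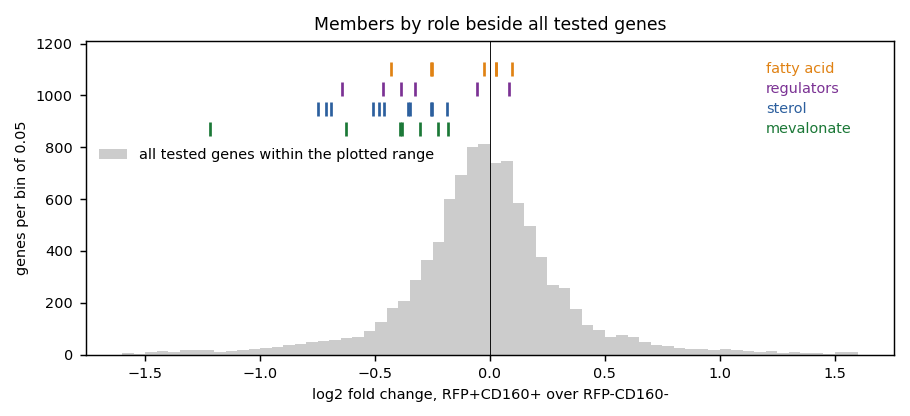
Histogram of log2 fold changes (RFP+ over RFP-) of tested genes, counted in bins of 0.05, with a tick above it for each of the 31 genes, coloured by role. Mevalonate and sterol genes lie between -1.22 and -0.18, and fatty acid genes spread from -0.43 to 0.10.

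Summed FPKM over all genes was higher in RFP- (262041 to 276608) than in RFP+ libraries (238848 to 241207). When every library was rescaled to the same total, the median of all genes moved from -0.03 to 0.13 and that of the 31 genes to -0.21. Then 15 genes were lower, without Acat2, Acly, Fasn and Hsd17b7, and 2 were higher (Scap and Acaca). All-gene calls, 1591 higher and 2098 lower as deposited, became 3290 higher and 1173 lower.

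Other signals moved with the sort. Of 30 cell cycle genes, 26 were tested and 16 were lower in RFP+ cells, 0 higher, with summed FPKM of 209 to 224 in RFP+ and 253 to 357 in RFP- libraries. Some of the 16, such as Cdk1 (0.504 against 1.96 FPKM), passed the filter of 1 FPKM only through RFP- cells. For such genes the filter favours a lower call. Mki67, a marker of cycling cells, averaged 2.04 ± 0.33 FPKM (SD, n = 3) in RFP+ and 9.40 ± 4.20 FPKM (n = 3) in RFP- libraries. Of 12 T cell markers, 9 were listed and 8 tested, of which 4 were lower (Cd8a, Itgae, Cd3g and Cd3e) and 1 was higher (Cd2), all but Cd8a named after their values were seen. The list summed to 1823 to 1952 FPKM in RFP+ against 2552 to 2618 FPKM in RFP- libraries. Of 12 myeloid markers, 8 were listed, 4 tested and 3 lower, with sums of 16.9 to 24.8 FPKM against 42.6 to 59.1 FPKM. Itgax, which IELs can also express, made up most of that sum. Itgam, named after its values were seen, also passed the filter only through RFP- cells (0.0588 against 1.30 FPKM). Of 21 epithelial markers, 11 were tested, 1 was higher and 2 were lower, with sums of 112 to 131 FPKM against 106 to 204 FPKM. Krt18, 1 of the 2 and named after its values were seen, passed the filter only through RFP- cells (0.534 against 2.42 FPKM). Paneth cell markers summed to 19.4 to 69.9 FPKM against 40.6 to 305 FPKM, and 0 of 6 tested passed. The part of these signals in the sterol gene differences was not tested.

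In the LI libraries 19 of the 32 genes were below all 6 RFP+ and RFP- libraries, and 27 were below all 3 RFP- libraries. Srebf2 was 65.2 and 65.4 FPKM there, Cyp51 17.5 and 19.6 FPKM, Lss 3.85 and 3.61 FPKM, and Mvd 18.7 and 17.2 FPKM. Scap, at 14.8 and 15.4 FPKM, and Acaca, at 3.27 and 3.33 FPKM, were above all 6. Bcl6 in these libraries was 17.9 and 19.1 FPKM. No test was made, because the labels give them no group. How many of all listed genes lay below in the same way was not worked out, so nothing particular to the 32 genes is read from these counts.

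In the Bcl6 knockouts 0 of the 31 tested genes passed by limma at an adjusted p of 0.05. The background was low too, with 0.0313% of 9573 genes called higher and 0.387% lower. Beside 559 of all 9573 tested genes, 1 of the 31 passed at an unadjusted p of 0.05. This was Scd2, with 7.75 and 6.14 FPKM in knockouts and 12.9 and 9.19 FPKM in littermates (log2 fold change -0.59 ± 0.21, limma adjusted p = 0.72). The median log2 fold change of the 31 genes was -0.12, and that of all tested genes was 0.03. All 7 fatty acid genes tested had a negative log2 fold change, with a median of -0.26, beside 44.6% of all tested genes that were negative. Of the 7, Fads2 had 1.93 and 0.976 FPKM against 2.10 and 2.67 FPKM. For the 11 sterol genes the median was -0.03. The median of the 31 genes was -0.066 without littermate 1, -0.13 without littermate 2, -0.14 without knockout 1 and -0.052 without knockout 2. The 2 knockout libraries differed for the SREBP genes. Srebf2 was 109 FPKM in knockout 1 and 62.1 FPKM in knockout 2, beside 100.4 and 115 FPKM in littermates. Srebf1 was 40.7 and 22.0 FPKM, beside 33.0 and 41.2 FPKM. In both genes knockout 1 lay between the littermates and knockout 2 below both. Without knockout 1, 7 genes were called lower (Srebf2, Srebf1, Scd2, Fads2, Dhcr7, Mvd and Fasn), in a fit that assumes the lone knockout varies like the littermates. That fit called 8.40% of all 9902 genes lower and 7.37% higher. The 95% intervals of the 31 log2 fold changes reached from -1.07 to 0.63, so moderate differences were not detectable here. Paneth cell markers were lower in these knockouts (5 of 7, summed FPKM 61.7 to 63.9 against 276 to 290), and their part was not tested.

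Loss of Prdm1 was followed by a lower level of Lss and a higher level of Fads2, which were the 2 of 31 tested genes that passed by limma at an adjusted p of 0.05. Over all 10969 genes, 2.54% were called lower and 4.29% higher. The values of this experiment and of the Tcf7 experiment are reads scaled by library, without gene length. Lss signal was 1450 and 1444 in knockouts and 2702 and 2160 in littermates, so the groups were apart, with a log2 fold change of -0.74 ± 0.13 and a limma adjusted p of 0.022. Without the mean-variance trend Lss did not pass (adjusted p = 0.076 by limma). Fads2 signal was 374 and 266 in knockouts and 129 and 132 in littermates, with a log2 fold change of 1.27 ± 0.23 and a limma adjusted p of 0.025. Fads2 did not pass without knockout 1 (adjusted p = 0.091 by limma) or after quantile normalization (adjusted p = 0.056 by limma). Epithelial markers rose in the same knockouts. Of 21 tested, 13 were higher and 0 lower, with summed signal of 22080 to 23403 against 15952 to 17148, and Paneth cell markers summed to 2929 to 15674 against 1280 to 3153. Phgr1, 1 of the 13 and named after its values were seen, passed the filter only through the knockouts (80.7 against 14.0). For such a gene the filter favours a higher call. The 3 markers with the highest signal did not move alike. Cdh1 averaged 10124 against 10497 and Epcam 2787 against 2761, and neither passed, while Lgals4 rose from 1046 ± 17.9 (SD, n = 2) to 2001 ± 340 (n = 2). T cell markers summed to a signal of 258933 to 272280 against 310717 to 332143, and 0 of 9 passed. Myeloid markers summed to 6853 to 7214 against 10799 to 13100, and 2 of 5 tested were lower (Itgax and Itgam, named after their values were seen). The part of these signals in the Lss and Fads2 differences was not tested.

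The other genes did not pass in Prdm1 knockouts. The log2 fold change was negative for 25 of the 31 genes, with a median of -0.18 beside -0.04 over all tested genes, of which 57.5% were negative. At an unadjusted p of 0.05, 7 genes passed, Lss and Fads2 included, beside 2260 of all 10969 tested genes. Mvd signal was 550 and 484 in knockouts and 751 and 777 in littermates (log2 fold change -0.56 ± 0.14, limma adjusted p = 0.060), and Dhcr7 signal was 2577 and 2684 against 3653 and 3086 (limma adjusted p = 0.14). The median moved with the library left out. It was 0.02 without littermate 1, -0.37 without littermate 2, -0.25 without knockout 1 and -0.11 without knockout 2. Without littermate 2, 8 of the 31 genes were called lower, beside 4.74% of all 11259 genes called lower and 6.40% called higher in that fit.

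**Figure D3:**
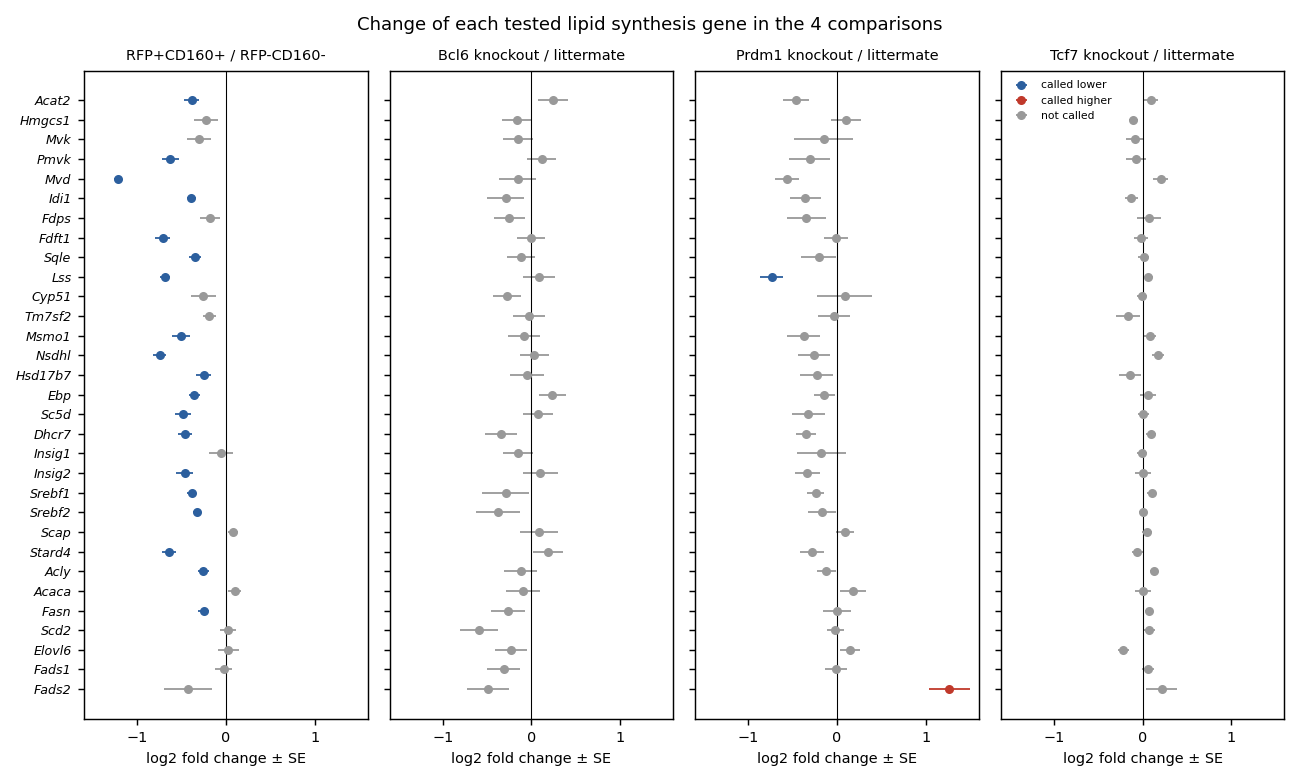
Log2 fold change ± SE of each of the 31 tested genes in the 4 comparisons, with the knockouts over their littermates in the last 3 panels. Most points in the first panel lie left of 0 and are called lower, 2 points pass in the Prdm1 panel, and none pass in the Bcl6 and Tcf7 panels.

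Some sterol genes varied more between libraries of 1 group than the rest. In the Prdm1 experiment Cyp51 signal was 6140 and 3288 in littermates and 5937 and 3824 in knockouts, Insig1 signal was 7888 and 4924 against 6970 and 4367, and Mvk signal was 1290 and 611 against 931 and 685. In each case libraries of 1 genotype differed more than the genotypes' means. The within-group SD on the log2 scale was 0.55 for Cyp51, 0.48 for Insig1 and 0.58 for Mvk, with a median of 0.18 over the 31 genes and 0.13 over all tested genes. In the reporter mice Fads2 (0.45), Cyp51 (0.23), Insig1 (0.22), Hmgcs1 (0.22) and Mvk (0.21) had the largest within-group SD of the 31 genes, whose median was 0.12 beside 0.09 for all tested genes. Across the 31 genes the SDs of these 2 experiments had a Pearson r of 0.46 and a Spearman rho of 0.44, given as a description only, since the genes share libraries. For the other 5 pairs of experiments r ran from -0.32 to 0.08.

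**Figure D4:**
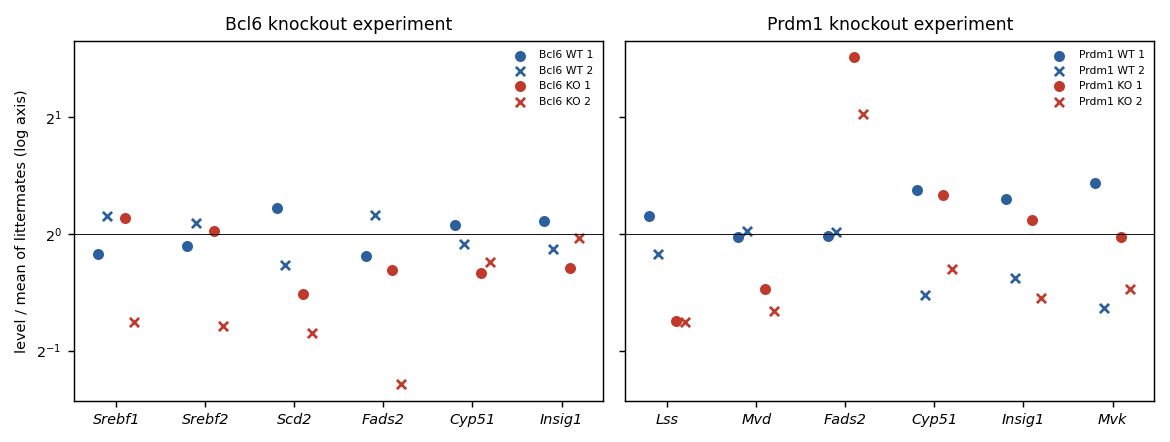
Level of 6 genes in each library of the Bcl6 and Prdm1 experiments, divided by the mean of the 2 littermates (log axis), with circles for replicate 1 and crosses for replicate 2. Srebf1 and Srebf2 are low in Bcl6 knockout 2 alone, and Lss and Fads2 separate the Prdm1 genotypes. In the Prdm1 panel Cyp51 and Insig1 differ more between libraries of 1 genotype than between genotypes.

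In the Tcf7 knockouts 0 of the 31 tested genes passed by limma at an adjusted p of 0.05, and edgeR and DESeq2 on the recovered reads also called 0. Over all 15210 genes, 1.49% were called higher and 1.23% lower. The median log2 fold change was 0.01, and the fold changes ran from -0.22 to 0.21. The largest negative was Elovl6, with signal of 2682 and 2674 in knockouts and 3121 and 3109 in littermates (log2 fold change -0.22 ± 0.06, limma adjusted p = 0.098). Mvd signal was 1266 and 1361 against 1143 and 1138 (log2 fold change 0.20 ± 0.09, limma adjusted p = 0.34). Srebf2 signal was 29513 and 30156 against 30160 and 29387, with a 95% interval of -0.10 to 0.10 for its log2 fold change. At an unadjusted p of 0.05, 4 genes passed (Elovl6, Acly, Nsdhl and Mvd), beside 1909 of all 15210 tested genes. Scd1, below the filter, was 30.8 and 36.9 in knockouts and 10.5 and 17.7 in littermates. In these knockouts 6 of 7 Paneth cell and 2 of 21 epithelial markers were higher, and their part was not tested.

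Neighbouring lipid pathways were read from lists of their own. Of 22 tested other genes of lipid synthesis, 5 fell in RFP+ cells and 0 rose. With 21.6% of all tested genes called lower in this comparison, nothing particular to these lists is read from their counts. Hacd3, a dehydratase of fatty acid elongation, averaged 38.0 ± 5.5 FPKM (SD, n = 3) in RFP+ and 58.7 ± 5.3 FPKM (n = 3) in RFP- libraries (log2 fold change -0.62, limma adjusted p = 0.0025). Acsl1, which activates fatty acids, fell by 0.45, and Aacs, which activates acetoacetate for lipid synthesis, fell by 0.38 on the log2 scale. Of 13 tested genes of sterol uptake, storage and export, 2 fell. Soat2, which esterifies cholesterol for storage, averaged 72.5 ± 5.4 against 98.5 ± 1.6 FPKM (n = 3 each), and Npc2, which moves cholesterol out of lysosomes, averaged 24.4 ± 1.4 against 34.2 ± 2.8 FPKM (n = 3 each). Of 19 tested genes of fatty acid oxidation, 6 fell, led by Etfb and Acads, and 1 rose. Acaa2, a mitochondrial thiolase, rose from 31.2 ± 0.9 to 37.8 ± 0.4 FPKM (n = 3 each, log2 fold change 0.27, limma adjusted p = 0.0027). In Prdm1 knockouts Soat2 signal averaged 5070 against 7173 and Mylip, which marks lipoprotein receptors for degradation, 1369 against 2027, and both fell. Ppara, a nuclear receptor for fatty acids, was called higher in those knockouts, at 122 ± 44.3 against 24.2 ± 11.1 (SD, n = 2 each). It passed the signal filter only through the knockouts, and for such a gene the filter favours a higher call. Epithelial markers rose in the same knockouts, and their part in the Ppara difference was not tested. In Tcf7 knockouts the elongase Elovl5 rose by 0.23 on the log2 scale, Hacd3 fell by 0.24 and Acaa2 fell by 0.30. In Bcl6 knockouts 0 genes of these 3 lists passed.

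Some values are uncertain because other annotated genes share sequence with the member. The share of 50-base stretches of the transcripts also found in another gene was 39.1% for Acat2, 30.4% for Acaca, 26.5% for Fdft1, 26.2% for Fdps and 25.3% for Idi1. How reads from such stretches were assigned is not given in the sources used here.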

How the data were processed

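Bulk RNA-seq of sorted cells was analysed from the deposited gene tables of 20 libraries. The submitters' processing notes list the mm10 build and, with no role given for each, DESeq2, RSEM, featureCounts of Subread, Bowtie2 and Trim Galore 0.4.4. The reporter-mouse and Bcl6 values were deposited as FPKM, scaled by the authors to gene length and depth. The Prdm1 and Tcf7 values were deposited under the same name but hold a signal, reads divided by 1 size factor per library: 100% of values were whole multiples of the smallest (tolerance 0.01), and 96.5 to 97.7% of low FPKM values were whole reads once multiplied by gene length (tolerance 0.02). Depths were worked out from these steps, as sums over listed genes for the signal values and as the scaling total for FPKM. Of low counts, 76.8 to 81.4% were even in the Prdm1 and 69.6 to 70.2% in the Tcf7 libraries, against 43.9 to 52.0% in the FPKM libraries. A step of the signal values may therefore not be 1 independent read, which was not tested. The recovered reads count each step as 1 read.

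Genes with at least 1 FPKM, or a signal of 50, in at least the number of libraries of the smaller group were fitted on log2(value + 1), each experiment alone, with limma 3.58.1 in R 4.3.3 (lmFit, eBayes with trend). Fold changes are on that scale and understate changes of low genes. P-values are two-sided and adjusted over all tested genes by Benjamini-Hochberg, with a threshold of 0.05. Intervals are 95% limma intervals. Alternatives were another pseudocount, no filter, 3 other scalings, no trend, a replicate block, leaving out each library, and, for the signal tables, edgeR 4.0.16 and DESeq2 1.42.0 on the recovered reads. The scripts were tested on simulated data. Gene positions come from GENCODE vM21 (GRCm38) and promoters from RefSeq.

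The genes and lists were chosen with earlier results of these data known. Named are all members, up to 3 called genes by smallest p from each other pathway list, the marker genes with the highest level and the sorted or deleted genes. Groups came from the labels.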

Additional observations from a re-analysis of the deposited data

How the results depend on the processing

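Over all alternatives no call of a member changed direction. In the reporter mice, rescaling libraries to the same total gave 2 members higher and a median of -0.21, and leaving out 1 library gave 17 to 19 members lower. In the Bcl6 experiment the median was -0.17 after that rescaling. Leaving out 1 library there gave medians of -0.14 to -0.052 and 0 to 7 members lower, the 7 without knockout 1. In the Prdm1 experiment 0 members were higher after quantile normalization, 0 were lower without the trend and 2 were lower by DESeq2. Leaving out 1 library there gave 1 to 8 members lower, the 8 without littermate 2, 0 to 1 higher, the 0 without knockout 1, and medians of -0.37 to 0.02. The causes of these shifts were not tested.

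The labels number the replicates without saying what a number stands for, so the main fits used no pairing. Deviations of same-numbered libraries correlated at -0.23, 0.00 and -0.33 in the reporter mice. They correlated at -0.46 in the Bcl6, 0.53 in the Prdm1 and 0.06 in the Tcf7 experiment. For differently numbered RFP+ and RFP- libraries the range was -0.31 to 0.49. The positive values were RFP- 1 with RFP+ 3 (0.49), RFP- 2 with RFP+ 1 (0.36) and RFP- 3 with RFP+ 2 (0.43). Over the tested members these pairs gave 0.80, 0.51 and 0.68. A block of these pairs was not fitted, so whether the reporter libraries were paired in this way was not tested. In the Prdm1 experiment replicate 1 was above replicate 2 in both genotypes for 22 of the 31 members. Whether libraries there were paired cannot be decided with 2 per group. With a replicate block, the reporter mice gave 18 members lower, beside 17.4% of all tested genes lower, and the Bcl6 experiment 0, beside 0.669% lower and 0.146% higher. The Prdm1 experiment gave 9 lower and 1 higher under the block, beside 10.7% of all tested genes lower and 11.0% higher. The Tcf7 experiment gave 1 lower (Elovl6) and 1 higher (Acly) under the block, beside 3.17% lower and 3.25% higher. A crossed replicate block in the Bcl6 experiment, chosen after seeing the data, gave 1 member lower and 0 higher, beside 2.84% of all tested genes lower and 1.88% higher. Precision is limited by 2 libraries per group in each knockout experiment.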
